A study of Mus musculus with 6 samples.

Results

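The transcripts of 49 genes of bone morphogenetic protein (BMP) and transforming growth factor beta (TGF-beta) signalling were compared between cultures from old and young mice. The genes were taken by name from the deposited count table: 16 ligands, 10 receptors, 8 extracellular antagonists and modulators, the 8 SMAD proteins, 3 ID target genes and 4 latent TGF-beta binding proteins. All 49 were found among the 39017 identifiers of the table, and 48 had enough counts to be tested, of 15567 genes tested in all. The cells were adherent bone marrow cells labelled as macrophages, grown from crushed femora, tibiae and humeri of wild-type BALB/c mice, an inbred strain. There were 3 libraries from young mice (3 weeks of age) and 3 from old mice (older than 78 weeks), each made from the RNA of 10000 cells. The labels give the surface phenotype F4/80+CD169+ and name no treatment in either group. Whether each library came from its own animal is not stated in the labels, and the p-values therefore reflect library-to-library spread only, which may be technical.

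BMPs and the related growth and differentiation factors (GDFs) are secreted ligands. BMPs and some GDFs bind pairs of type I and type II receptor kinases, which phosphorylate SMAD1, SMAD5 and SMAD9. TGF-beta and activins bind receptors of the same family and act through SMAD2 and SMAD3, and both branches share SMAD4. SMAD6 and SMAD7 are inhibitory SMADs induced by the pathway itself, and noggin, gremlin and chordin trap BMPs outside the cell. In bone, BMPs drive the formation of osteoblasts, while TGF-beta is stored in the matrix in a latent form held by latent TGF-beta binding proteins.

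Total counts ranged from 34391206 to 43367734 per library. Levels are in CPM, each gene's counts relative to the scaled library size. Log2 fold changes are those of old over young, so that positive values mean higher in old, and carry a standard error (SE). Macrophage markers were present in all 6 libraries, and 9 of 10 fell with age (edgeR), with summed levels of 3075 to 3463 CPM in young and 1732 to 2007 CPM in old libraries. Adgre1, which encodes F4/80, was 385 to 530.2 CPM in young and 197 to 245 CPM in old libraries, and Siglec1, which encodes CD169, 126 to 139 and 37.9 to 48.4 CPM. Mesenchymal stromal markers summed to more, 30818 to 68480 CPM in young and 23525 to 29633 CPM in old. Most of that sum came from Col1a1, Col1a2 and Col3a1, none of which passed. Col1a1 alone was 16937 to 36658 CPM in young and 10920 to 13803 CPM in old libraries. The ranking above macrophage markers in young, and the lower sum in old, rest on these collagen genes. The stromal markers were mixed in direction, with 2 of 10 higher (Pdgfra, Cxcl12) and 2 lower (Lepr, Lum). Young replicate 3 stood apart from the other 5 libraries on the second principal component (16.1% of the variance), and type I collagen genes took 5.44% of its counts, against 1.80% to 3.00% in the others. Several sparser lists were higher in old libraries: B-lineage markers (3 of 4 tested, summed 3.09 to 4.77 CPM in young and 15.6 to 27.6 CPM in old) and mast cell markers (2 of 4, 14.5 to 18.2 and 41.7 to 71.3 CPM). Of 6 smooth muscle and pericyte markers, Acta2 and Tagln rose and Cspg4 fell, with sums of 2262 to 2924 CPM in young and 3799 to 4306 CPM in old libraries. In cultures of mixed cells, fewer cells of a type and less RNA per cell cannot be told apart, and the part that cell makeup plays in the differences below was not tested.

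Among the 48 tested genes, 14 showed higher and 5 lower levels in old libraries (edgeR adjusted p below 0.05 over all genes tested), which is 39.6% of them, against 10.5% of all genes. Over all genes 5.84% were higher and 4.70% lower, against 29.2% and 10.4% of the BMP and TGF-beta genes. The increases included 2 of 8 antagonists (Grem1, Nog), 4 of 8 SMADs and 2 of 3 ID genes, and 4 of the 5 decreases were in ligands (Bmp3, Gdf6, Bmp2, Bmp5). The median log2 fold change was 0.33, where that of all tested genes was -0.01. Young and old CPM values formed separate ranges for 32 of the 48 genes (66.7%), 24 of them higher and 8 lower in old, against 30.2% of all genes. The BMP and TGF-beta genes were more abundant than the typical tested gene, with a median of 32.8 against 19.7 CPM.

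Of the 19 calls, 12 held on leaving out each of the 6 libraries in turn: Bmp2, Bmp3, Gdf6, Bmp6, Gdf10, Tgfbr3, Grem1, Nog, Smad3, Smad6, Id1 and Id3. The other 7 calls each depended on at least 1 library and are marked below. Without young replicate 3, the library rich in collagen, all 19 calls held and 13 more genes passed. This gave 23 higher and 9 lower of 49 tested, where the background was 9.14% of all genes higher and 7.32% lower. Bmp7 and Gdf5 were among the 13, and the filter on low counts kept both only through their old libraries. Bmp7 had 0 reads in every young library, so its direction in that fit was fixed in advance. With any other library left out, the only new calls were Tgfb1 (without young replicate 1) and Acvrl1 (without old replicate 1).

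**Figure D1:**
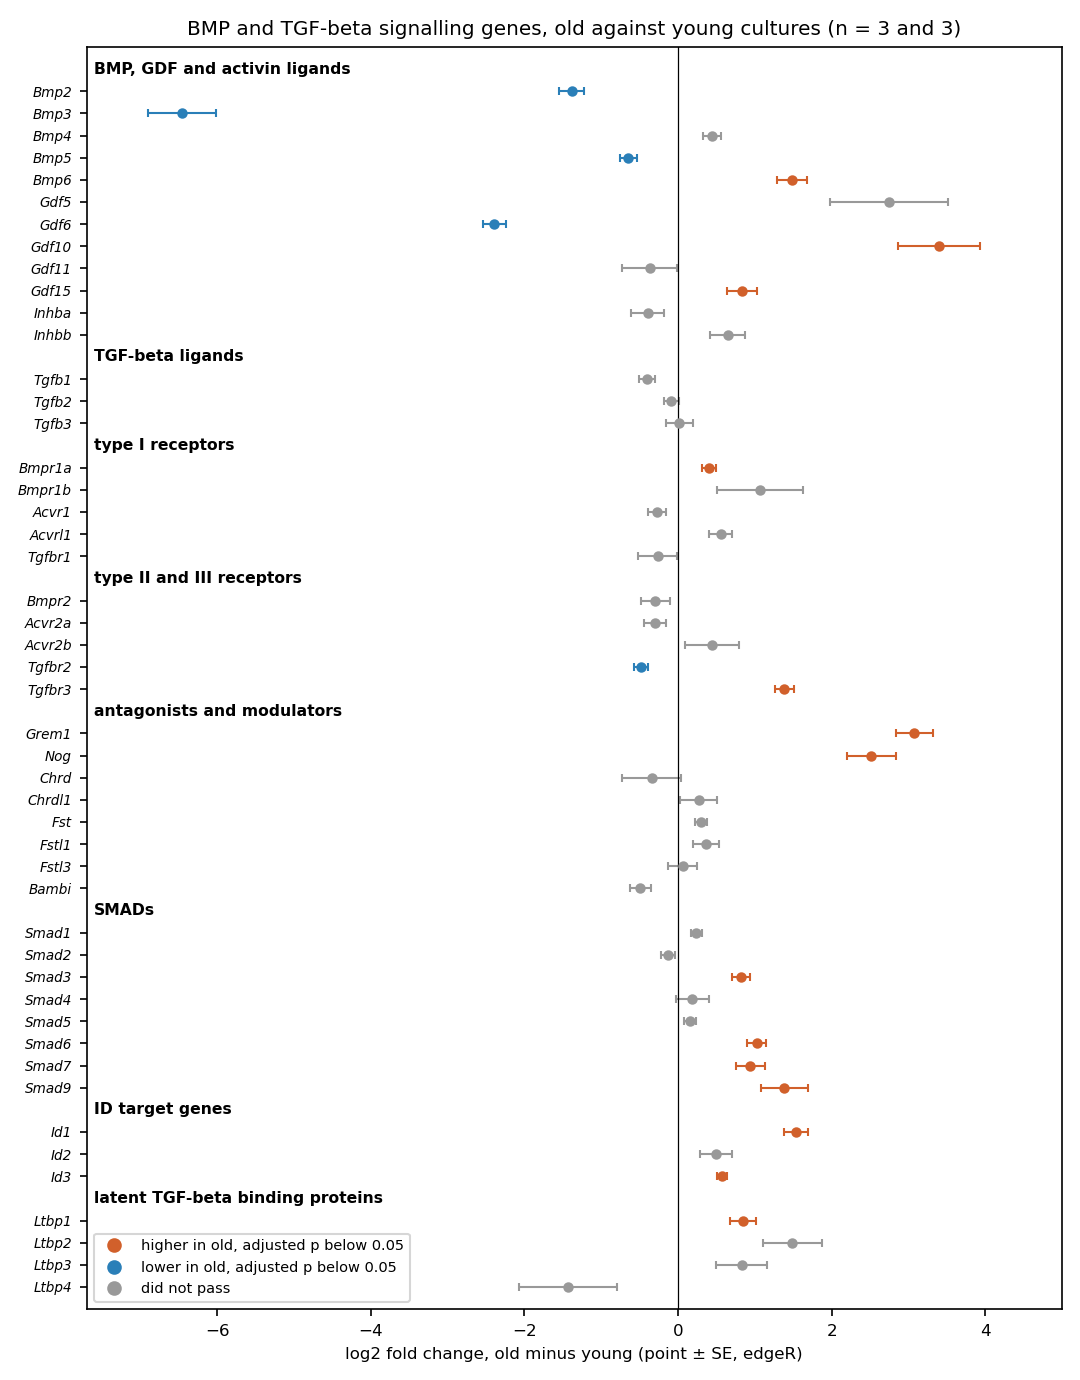
Log2 fold change (old minus young, horizontal axis) with its SE for each of the 48 tested BMP and TGF-beta genes, grouped by role. Orange points are the 14 genes higher in old, blue the 5 lower and grey the 29 that did not pass; Bmp3 lies furthest left at -6.46 and Gdf10 furthest right at 3.40.

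The BMP-type ligands changed in opposite directions. Bmp3, an unusual BMP that counteracts the bone-forming members and is made by osteoblasts and osteocytes, measured 21.5, 11.9 and 25.8 CPM in young replicates 1, 2 and 3 and 0.114, 0.312 and 0.250 CPM in old replicates 1, 2 and 3. It was close to undetected in the old cultures, where 5, 12 and 9 reads were counted, and fell 87.8-fold (log2 fold change -6.46, SE 0.44, edgeR adjusted p = 0.000495). Bmp3 is a protein-coding gene on chromosome 5 at 98854415 to 98884396 (mm10, ENSMUSG00000029335). Gdf6, a factor of joint and skull formation, measured 23.3, 30.6 and 23.1 CPM in young and 4.81, 4.93 and 4.94 CPM in old libraries. The old libraries were nearly identical, and the decrease was 5.24-fold (log2 fold change -2.39, SE 0.15, edgeR adjusted p = 0.000473). Bmp2, a strong inducer of osteoblasts, measured 30.0, 28.3 and 40.2 CPM in young and 13.7, 12.5 and 11.6 CPM in old libraries. Every young library lay above every old one, a 2.61-fold decrease (log2 fold change -1.38, SE 0.16, edgeR adjusted p = 0.00275). Bmp2 lies on chromosome 2 at 133552159 to 133562885 and Gdf6 on chromosome 4 at 9844372 to 9862345. Bmp5, a ligand needed for normal skeletal shape, was between 20.5 and 22.4 CPM in young and between 13.1 and 15.3 CPM in old libraries (22.2, 20.5 and 22.4 against 15.3, 13.2 and 13.1). Its 1.56-fold decrease (edgeR adjusted p = 0.0136) was lost without old replicate 2 (adjusted p = 0.0700) or old replicate 3 (adjusted p = 0.0620), and 46.7% of its exon length is shared with Gm26903.

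Some osteoblast and osteocyte markers also differed. Of 10 on the list, 5 fell (Ibsp, Dmp1, Ifitm5, Sp7 and Runx2), 1 rose (Spp1) and 4 did not pass (Bglap, Bglap2, Alpl and Phex) with edgeR, and the summed level, most of it from Spp1, was 6399.6 to 8018 CPM in young and 7149 to 8767 CPM in old libraries. Ibsp went from 656.7 to 1636 CPM in young to 38.2 to 77.0 CPM in old libraries, and Dmp1, an osteocyte gene, from 33.8 to 67.2 CPM to 0.333 to 0.545 CPM. None of the 10 was at 0 in all libraries, although Ifitm5 had no count in old replicate 1. The part of this list in the ligand decreases was not tested.

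Bmp6, Gdf10 and Gdf15 rose. Bmp6, the ligand that controls hepcidin and body iron, measured 1.11, 1.22 and 1.16 CPM in young and 3.40, 3.09 and 3.28 CPM in old libraries. The libraries of each age lay close together, and the increase was 2.79-fold (log2 fold change 1.48, SE 0.20, edgeR adjusted p = 0.00494). Gdf10, also called BMP3B and the closest relative of Bmp3, measured 0.200, 0.113 and 0.119 CPM in young and 2.19, 1.69 and 0.778 CPM in old libraries. It moved opposite to Bmp3, at a low level of 4 to 7 reads per young and 28 to 96 per old library (log2 fold change 3.40, SE 0.53, edgeR adjusted p = 0.00919). The filter on low counts kept Gdf10 only through its old libraries and Bmp3 only through its young ones. Their opposite directions are therefore given as description only. Gdf15, a stress-induced factor that suppresses appetite, measured 6.71, 6.96 and 10.3 CPM in young and 12.9, 15.9 and 13.9 CPM in old libraries. Its 1.78-fold increase (edgeR adjusted p = 0.0392) held on leaving out young replicate 3 and was lost on leaving out any other library (adjusted p up to 0.148).

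Bmp4, a further inducer of osteoblasts, had non-overlapping ranges but missed the threshold, at 26.0 to 28.2 CPM in young and 33.7 to 42.7 CPM in old libraries (log2 fold change 0.45, SE 0.12, edgeR adjusted p = 0.0530, 0.0445 without young replicate 3 and 0.0910 to 0.155 without any other library). Inhba, the activin A subunit, had the highest mean CPM per kilobase of exon among the listed BMP, GDF and activin ligands (23.1 in young and 17.6 in old, where Bmp4 followed at 16.5), with 128, 114 and 201 CPM in young and 96.9, 125 and 115 CPM in old libraries. Its ranges overlapped and its log2 fold change of -0.39 did not pass (edgeR adjusted p = 0.337). Inhbb, the activin B subunit, measured 10.9 to 21.4 CPM in young and 23.6 to 25.7 CPM in old libraries (edgeR adjusted p = 0.140, 0.00861 without young replicate 3). Gdf11 stayed under 3 CPM with overlapping ranges. Gdf5, a joint factor, had 7, 6 and 0 reads in young and 47, 29 and 26 in old libraries (log2 fold change 2.74, SE 0.77, edgeR adjusted p = 0.0684, 0.0339 without young replicate 3), and 40.3% of its exon length is shared with Gm15557. Bmp7, an inducer of bone and kidney, was the gene with too few reads to test. It had 0 reads in each young library and 7, 13 and 12 in the old ones. With the 32 old reads taken as observed, this was 9.38-fold higher against a floor of 3 reads over the young group. That floor covers counting error in the young reads only.

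Set side by side per kilobase of exon, Bmp4 was the most abundant of 8 BMP-type ligands in every library of both ages, and its share was larger in old. It held 32.7% ± 1.21 (SD, n = 3) of the summed CPM per kilobase of Bmp2 to Bmp7, Gdf5 and Gdf6 in young libraries and 62.9% ± 3.93 in old ones. Bmp2 went from 24.8% ± 3.25 to 13.6% ± 1.74 of that sum, Gdf6 from 19.7% ± 3.92 to 5.31% ± 0.380 and Bmp3 from 7.15% ± 2.32 to 0.117% ± 0.0566. The sum itself was 35.4, 36.0 and 39.8 CPM per kilobase in young and 26.0, 24.4 and 28.2 in old libraries. These shares were chosen after the values were seen and are given without a test.

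The secreted BMP antagonists Grem1 and Nog showed the largest increases among the inhibitors. Grem1 encodes gremlin, which binds BMP2, BMP4 and BMP7 and marks a skeletal stem cell population of the marrow. It measured 8.85, 12.3 and 17.6 CPM in young and 109, 103 and 116 CPM in old libraries. The lowest old library was well above the highest young one, and the increase was 8.44-fold (log2 fold change 3.08, SE 0.24, edgeR adjusted p = 0.000778). Grem1 lies on chromosome 2 at 113746164 to 113758646, on the minus strand (ENSMUSG00000074934). Nog, which encodes noggin and whose product binds BMPs with high affinity, measured 1.34, 0.905 and 2.14 CPM in young and 8.49, 9.53 and 7.05 CPM in old libraries. This was a 5.72-fold increase (log2 fold change 2.51, SE 0.32, edgeR adjusted p = 0.00383) with no overlap between ages. Nog lies on chromosome 11 at 89300638 to 89302332. Per kilobase of exon, the level of Grem1 was 0.0603, 0.0827 and 0.107 of the summed level of the 8 ligands above in young libraries, and 1.01, 1.01 and 0.989 of it in old libraries. The Grem1 transcript thus went from a small fraction of the ligand sum to about its size. This ratio of transcript levels was chosen after the values were seen and carries no test. The sum also holds ligands beyond the BMP2, BMP4 and BMP7 named above. Of these, Bmp3, Bmp5 and Gdf6 fell, Bmp6 rose and Gdf5 did not pass.

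**Figure D2:**
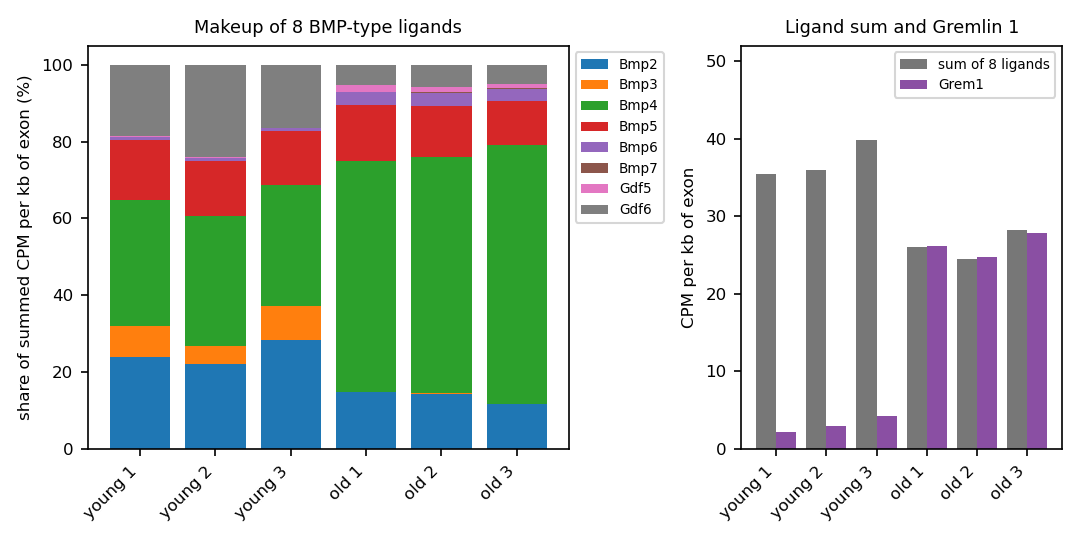
Left, the share (%) of each of 8 BMP-type ligands in their summed CPM per kilobase of exon in each library; right, that sum (grey) and the level of Grem1 (purple), both in CPM per kilobase. Bmp4 takes 31.6% to 34.0% of the young and 60.0% to 67.4% of the old sums, and Grem1 rises from at most 4.24 to at least 24.8 CPM per kilobase.

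The other 6 antagonists and modulators did not pass. Fstl1, a secreted glycoprotein of stromal cells, was among the most abundant of all 49 genes, with 568, 564 and 832 CPM in young and 828, 764 and 938 CPM in old libraries. Young replicate 3 lay within the old range, and the log2 fold change of 0.37 had an edgeR adjusted p of 0.246 (0.00808 without young replicate 3). Fst, which encodes the activin trap follistatin, was 124, 131 and 138 CPM in young and 169, 153 and 161 CPM in old libraries, ranges that did not overlap (log2 fold change 0.30, SE 0.08, edgeR adjusted p = 0.0550, 0.0189 without young replicate 3). Fstl3, a second activin trap, measured 42.9, 44.2 and 68.1 CPM in young and 48.0, 54.7 and 59.3 CPM in old libraries, with overlapping ranges, and shares 47.3% of its exon length with Prss57. Bambi, a decoy receptor of the cell surface, was 32.8 to 45.6 CPM in young and 26.8 to 27.4 CPM in old libraries (edgeR adjusted p = 0.0651, 0.0457 without young replicate 3). The BMP binders Chrd (1.12 to 2.67 CPM over all libraries) and Chrdl1 (17.7 to 34.5 CPM) had overlapping ranges.

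Of the BMP receptors, Bmpr1a was called. This type I receptor measured 103, 89.3 and 84.9 CPM in young and 124, 121 and 121 CPM in old libraries, a 1.32-fold increase (log2 fold change 0.40, SE 0.09, edgeR adjusted p = 0.0351). The ranges did not overlap, and the call held without young replicate 1 or 3 and was lost without any other library (adjusted p up to 0.132). Bmpr1b, the alternative type I receptor of cartilage, was far less abundant, at 0.685 to 4.22 CPM in young and 4.02 to 5.61 CPM in old libraries. Acvr1, which carries the mutation of fibrodysplasia ossificans progressiva, was 14.9 to 16.9 CPM in young and 12.7 to 14.1 CPM in old (log2 fold change -0.27, edgeR adjusted p = 0.208). Acvrl1, the endothelial BMP9 receptor also made by macrophages, was 19.2 to 21.6 CPM in young and 24.4 to 34.2 CPM in old (log2 fold change 0.55, edgeR adjusted p = 0.0538, 0.0332 without old replicate 1). The 7 endothelial markers summed to 24.9 to 42.7 CPM in young and 22.0 to 27.9 CPM in old libraries. The type II receptors Bmpr2 (4.31 to 6.96 CPM), Acvr2a (20.1 to 29.7 CPM) and Acvr2b (0.802 to 1.62 CPM) had overlapping ranges, and Acvr2a passed on leaving out young replicate 3 (log2 fold change -0.42, edgeR adjusted p = 0.0386).

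The ID genes are textbook targets of BMP signalling and encode dominant-negative partners of basic helix-loop-helix factors. Id1 and Id3 rose, and Id2 did not pass. Id1 measured 10.8, 13.3 and 16.1 CPM in young and 39.4, 41.6 and 35.5 CPM in old libraries, a 2.90-fold increase (log2 fold change 1.54, SE 0.16, edgeR adjusted p = 0.00193). Id3 measured 313, 289 and 308 CPM in young and 448, 458 and 448 CPM in old libraries, a 1.49-fold increase (log2 fold change 0.57, SE 0.07, edgeR adjusted p = 0.00329). For Id3 the libraries of each age lay close together, while the young Id1 libraries were more spread. Neither gene had overlap between ages. Id3 had the highest level per length of all 49 genes, 169 CPM per kilobase in young and 252 in old libraries. Id2 measured 67.2, 78.9 and 43.2 CPM in young and 94.5, 91.1 and 81.7 CPM in old libraries. Its ranges did not overlap either, but young libraries were scattered and it did not pass (log2 fold change 0.50, SE 0.21, edgeR adjusted p = 0.198). Id4, the fourth family member and not among the 49, measured 9.42, 16.0 and 15.8 CPM in young and 67.0, 62.4 and 58.2 CPM in old libraries (4.56-fold higher, edgeR adjusted p = 0.00135). Id1 lies on chromosome 2 at 152736251 to 152737410 and Id3 on chromosome 4 at 136143497 to 136145755.

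Of the 8 SMADs, 4 rose and 0 fell. The inhibitory Smad6, which blocks BMP receptors, measured 49.3, 45.7 and 57.7 CPM in young and 104, 116 and 91.6 CPM in old libraries. It was 2.04-fold higher (log2 fold change 1.03, SE 0.13, edgeR adjusted p = 0.00340). The inhibitory Smad7, which blocks both branches, measured 21.7, 24.0 and 28.3 CPM in young and 56.8, 35.7 and 49.8 CPM in old libraries. The old libraries were spread out, and the 1.92-fold increase (edgeR adjusted p = 0.0213) held without young replicate 3 or old replicate 2 and was lost without any other library (adjusted p up to 0.0797). Smad9, the least abundant SMAD of the BMP branch and itself a BMP target, measured 1.88, 0.877 and 1.19 CPM in young and 3.49, 3.69 and 3.14 CPM in old libraries. Its increase (log2 fold change 1.38, SE 0.31, edgeR adjusted p = 0.0316) held without young replicate 1 or 3 and was lost without any other library (adjusted p up to 0.114).

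The signal-carrying Smad1 and Smad5 differed little. Smad1 measured 97.8, 93.0 and 88.8 CPM in young and 113, 106 and 112 CPM in old libraries (log2 fold change 0.24, SE 0.08, edgeR adjusted p = 0.0954), and Smad5 31.0 to 31.6 CPM in young and 33.7 to 36.6 CPM in old (log2 fold change 0.16, SE 0.08). The ranges of both lay apart without passing. The shared Smad4 measured 38.6, 67.3 and 49.9 CPM in young and 64.1, 65.8 and 47.4 CPM in old libraries, with overlap. In the TGF-beta branch, Smad3 measured 27.9, 35.0 and 35.8 CPM in young and 53.9, 59.6 and 60.3 CPM in old libraries, a 1.76-fold increase (log2 fold change 0.82, SE 0.12, edgeR adjusted p = 0.00673), while its partner Smad2 measured 38.2 to 40.8 CPM in young and 34.6 to 39.2 CPM in old, with overlap (log2 fold change -0.13, SE 0.09, edgeR adjusted p = 0.442).

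**Figure D3:**
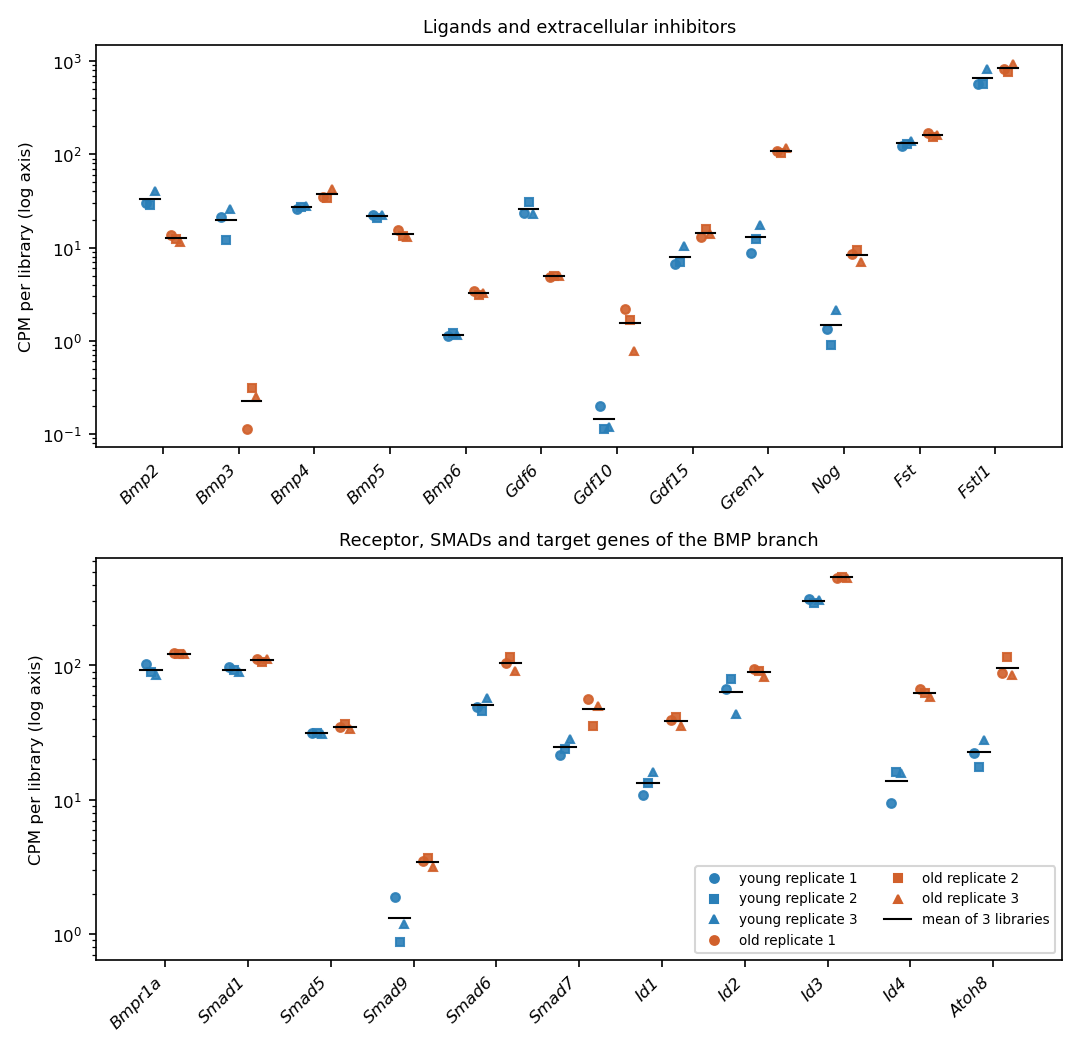
CPM of each library on a log axis for selected BMP-branch genes: ligands and secreted inhibitors above, a receptor, SMADs, the ID genes and Atoh8 below (blue young, orange old, marker shape the replicate number, bars means of 3 libraries). Other textbook targets are not drawn, among them Sp7 and Runx2, which fell, and Hey1, Dlx5, Msx1 and Msx2, which did not pass. Old libraries lie below all young ones for Bmp2, Bmp3, Bmp5 and Gdf6, and above all young ones for Grem1, Nog, Smad6, Smad7, Smad9 and the ID genes.

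Promoter sequence is shown for 3 of the genes higher in old, an antagonist and an inhibitory and a BMP-branch SMAD. They are examples of genes described as targets of BMP signalling itself. The windows are the 250 bases before each RefSeq transcript start, 5′ to 3′ on the gene's own strand, from RefSeq (GRCm38.p6, the mm10 build). Of the 49 genes, 33 had a window in that table. Capitals mark the letters GGCGCC, the GC-rich core bound by SMAD1 and SMAD5, which reads the same on both strands.
Grem1, chr2:113758649-113758898, minus strand: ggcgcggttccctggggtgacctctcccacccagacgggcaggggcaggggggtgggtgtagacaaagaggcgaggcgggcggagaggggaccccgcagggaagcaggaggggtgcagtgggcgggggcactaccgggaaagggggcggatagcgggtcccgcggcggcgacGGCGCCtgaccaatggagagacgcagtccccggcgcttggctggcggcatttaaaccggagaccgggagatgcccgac
Smad9, chr3:54755332-54755581, plus strand: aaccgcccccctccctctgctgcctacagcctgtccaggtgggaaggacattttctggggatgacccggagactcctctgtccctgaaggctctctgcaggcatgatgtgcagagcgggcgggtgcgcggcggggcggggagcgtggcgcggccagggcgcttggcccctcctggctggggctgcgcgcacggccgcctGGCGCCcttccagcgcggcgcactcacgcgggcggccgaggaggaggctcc
Smad6, chr9:64022060-64022309, minus strand: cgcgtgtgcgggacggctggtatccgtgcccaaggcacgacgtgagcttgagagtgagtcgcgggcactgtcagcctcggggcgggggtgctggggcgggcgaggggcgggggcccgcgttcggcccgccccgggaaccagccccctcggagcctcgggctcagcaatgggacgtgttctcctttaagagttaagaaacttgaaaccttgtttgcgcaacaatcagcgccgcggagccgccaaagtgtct

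Counted backwards from -1 at the last base before the start, the match begins at position -78 in Grem1 and at -51 in Smad9. The Smad6 window held none, which says only that these letters are not in the 250 bases shown. The window of Id3, also a BMP target higher in old but not shown, held none either. The 33 genes had 42 windows, since some have several starts. GGCGCC was found in 3 of the 12 windows of higher genes (Bmpr1a, Grem1, Smad9), 0 of the 2 of lower genes and 7 of the 28 of genes that did not pass, and in 9.59% of all 32851 windows of this length. Counted by window, its share was 25.0% both in higher genes and in genes that did not pass. Counted by gene, it was found in 3 of 10 higher genes and in 6 of 21 that did not pass. Windows of the same gene can overlap, so that a site may count more than once. The SMAD box CAGACA, on either strand, was found in 1 of the 12 windows of higher genes (Ltbp1), 1 of the 2 of lower genes (Bmp5) and 4 of the 28 of genes that did not pass, and in 17.1% of all windows. The palindromic GTCTAGAC was found in 0 of the 42 windows and in 0.167% of all windows. The 3 windows shown had a GC content of 66.8% (Smad6) to 73.2% (Smad9).

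The 3 TGF-beta isoforms were abundant and did not pass the test. Tgfb3 measured 225, 225 and 347 CPM in young and 262, 269 and 277 CPM in old libraries (log2 fold change 0.02, SE 0.17, edgeR adjusted p = 0.966). The old range lay inside the young one, set apart by young replicate 3, and without that library Tgfb3 was called higher (log2 fold change 0.26, edgeR adjusted p = 0.0226). Its exons overlap those of other gene models over 12.4% of their length. Tgfb1, the isoform of platelets and immune cells, measured 131, 153 and 168 CPM in young and 112, 120.1 and 111 CPM in old libraries. The ranges did not overlap, and the log2 fold change of -0.40 (SE 0.10) had an edgeR adjusted p of 0.0529 (0.0308 without young replicate 1 and 0.0492 without young replicate 3). Tgfb2 measured 80.4, 87.7 and 99.5 CPM in young and 85.9, 79.5 and 86.5 CPM in old libraries, with overlap. Per kilobase of exon Tgfb3 made up 63.0% ± 3.83 (SD, n = 3) of the 3 isoforms in young and 68.2% ± 0.615 in old libraries, and Tgfb1 24.5% ± 2.66 and 19.4% ± 0.886. For both shares the ages did not overlap (exact two-sided permutation p = 0.1, the smallest that 3 against 3 libraries allow, and 0.2 after Benjamini-Hochberg adjustment over 8 shares). The 8 were the shares of the 3 isoforms and of the 5 type I receptors. Among the type I receptors, the share of Bmpr1a per kilobase was 38.3% ± 4.10 in young and 45.2% ± 1.79 in old libraries and that of Tgfbr1 39.1% ± 8.01 and 29.9% ± 3.33 (exact two-sided permutation p = 0.1 and 0.3, adjusted 0.2 and 0.343).

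The TGF-beta receptors changed in opposite directions. Tgfbr2, the type II receptor that binds the ligand and starts signalling, measured 291, 306 and 355 CPM in young and 220.2, 238 and 226 CPM in old libraries, a 1.39-fold decrease (log2 fold change -0.48, SE 0.09, edgeR adjusted p = 0.0203). Every young library lay above every old one, but removing any of the 3 old replicates ended the call (adjusted p up to 0.101, without old replicate 1). Tgfbr3, encoding the co-receptor betaglycan that presents TGF-beta2 and inhibin and can be shed as a soluble trap, measured 47.5, 53.3 and 60.3 CPM in young and 140.2, 124 and 157 CPM in old libraries. It rose 2.61-fold (log2 fold change 1.38, SE 0.13, edgeR adjusted p = 0.00124). Per kilobase of exon Tgfbr2 went from 38.8 to 27.8 CPM and Tgfbr3 from 8.21 to 21.4 CPM, so that their mean levels came to lie closer together. Tgfbr1, the type I kinase, measured 121, 118 and 61.4 CPM in young and 91.3, 88.9 and 70.5 CPM in old libraries. Young replicate 3 was the lowest of the 6, and Tgfbr1 did not pass (edgeR adjusted p = 0.610) but was called lower without that library (log2 fold change -0.52, edgeR adjusted p = 0.0270).

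**Figure D4:**
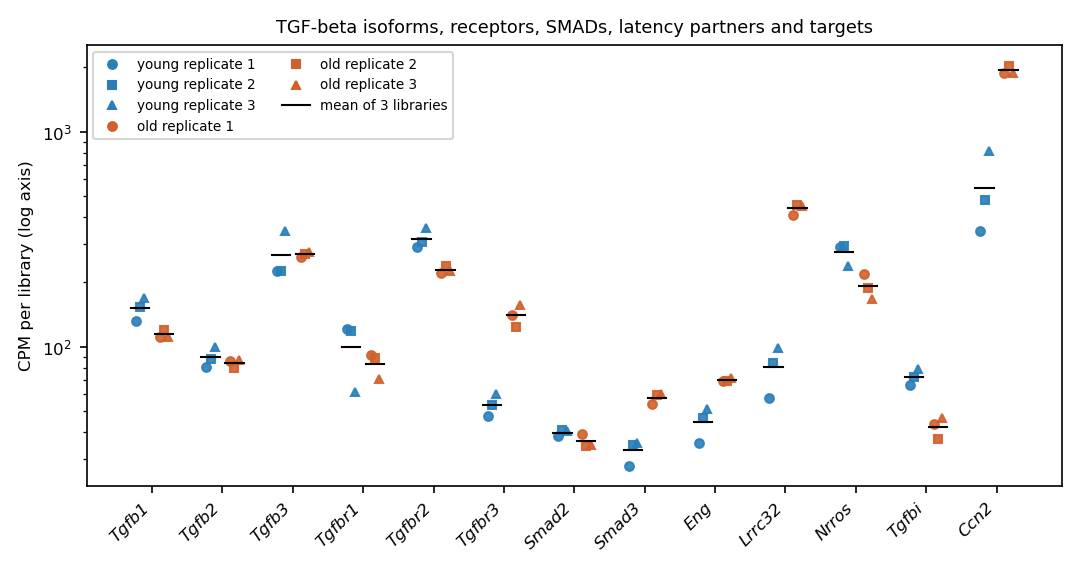
CPM of each library on a log axis for TGF-beta isoforms, receptors, SMADs, latency partners and target genes (blue young, orange old, marker shape the replicate number, bars means of 3 libraries). Tgfb2 and Tgfb3 overlap between ages, Tgfb1, Tgfbr2 and Nrros lie lower in all old libraries, and Tgfbr3, Smad3 and Lrrc32 lie higher in all of them.

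Latent TGF-beta binding proteins tether the latent complex to the matrix. Ltbp1 measured 138, 139 and 213 CPM in young and 307, 278 and 296 CPM in old libraries, a 1.80-fold increase (log2 fold change 0.84, SE 0.17, edgeR adjusted p = 0.0245). Ltbp2, which binds fibrillin and carries no TGF-beta, measured 52.4, 71.1 and 158 CPM in young and 233, 249.6 and 307 CPM in old libraries (log2 fold change 1.49, SE 0.39, edgeR adjusted p = 0.0535). Ltbp3, a carrier of latent TGF-beta in bone, measured 41.4, 55.5 and 111 CPM in young and 117, 115 and 137 CPM in old libraries (log2 fold change 0.83, SE 0.33, edgeR adjusted p = 0.185). For all 3, old libraries lay above all young ones, and young replicate 3 lay nearest to the old range. Without that library all 3 passed, with log2 fold changes of 1.08, 2.09 and 1.35 (edgeR adjusted p = 0.000411, 0.00175 and 0.00209), and the Ltbp1 call was lost on leaving out any other library (adjusted p up to 0.0969). Col1a1 and Col1a2 together took 5.44% of the counts of young replicate 3, against 3.00% and 2.66% in young replicates 1 and 2 and 1.80% to 2.25% in old libraries. Among young libraries, the one with most collagen also had the highest Ltbp1, Ltbp2 and Ltbp3. Between ages, collagen was lower and these 3 genes were higher in the old libraries. How collagen content relates to these genes was not tested. Ltbp4, of elastic fibres, was low, with overlapping ranges of 1.33 to 5.79 CPM in young and 0.548 to 2.00 CPM in old libraries.

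**Figure D5:**
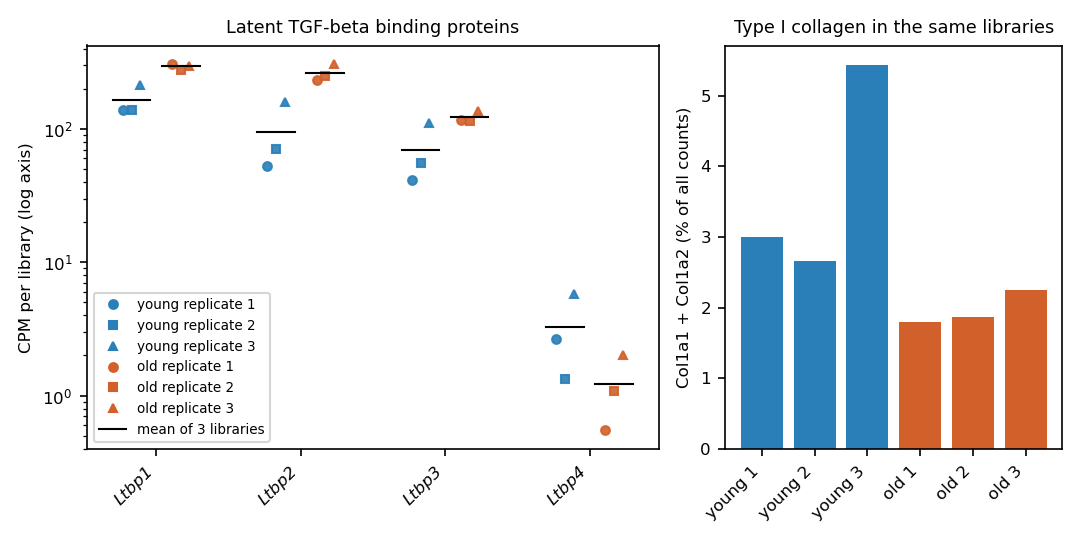
Left, CPM of the 4 latent TGF-beta binding proteins in each library on a log axis (blue young, orange old, bars are means of 3 libraries); right, the share (%) of all counts taken by Col1a1 and Col1a2 in the same libraries. Young replicate 3 has the highest level of all 4 genes among the young libraries and 5.44% collagen counts.

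The rest of the pathway was read from a list of 80 further genes, of which 78 had an identifier and 56 were tested. Of these 11 rose, 6 fell and 39 did not pass, with a median log2 fold change of 0.03. Over all genes tested, 5.84% were higher and 4.70% lower (edgeR). The 5 increases with the smallest p were Lrrc32, Crim1, Gdf3, Id4 and Atoh8. Lrrc32, encoding GARP, which holds latent TGF-beta on the surface of platelets and regulatory T cells, measured 57.6, 84.3 and 98.7 CPM in young and 409.7, 457 and 452 CPM in old libraries. It was 5.49-fold higher (log2 fold change 2.46, SE 0.19, edgeR adjusted p = 0.000785), and 4 of 5 megakaryocyte markers rose too, with sums of 47.0 to 80.1 CPM in young and 227 to 306.5 CPM in old libraries and none at 0 in all libraries. Most of each sum was Pf4, at 41.6 to 68.8 CPM in young and 188 to 191 CPM in old libraries. Of the 4 calls only that of Pf4 held on leaving out each library, while those of Itga2b, Gp1ba and Ppbp did not. The part of megakaryocytes in the Lrrc32 increase was not tested. Nrros, which holds latent TGF-beta on macrophages and was picked after its values were seen, fell 1.44-fold, from 275 ± 32.9 to 191 ± 25.7 CPM (SD, n = 3, edgeR adjusted p = 0.0458), a call lost on removal of any library except young replicate 3 (adjusted p up to 0.163). Macrophage markers, as given above, fell in the same libraries.

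Crim1, a transmembrane BMP binder, was 2.83-fold higher (47.7 ± 8.06 to 135 ± 6.79 CPM, edgeR adjusted p = 0.00118). Gdf3, a ligand of the TGF-beta family that macrophages make, went from 0.986 ± 0.399 to 9.69 ± 1.25 CPM (log2 fold change 3.29, edgeR adjusted p = 0.00133). Atoh8, a transcription factor induced by BMP and the iron pathway, measured 22.3, 17.4 and 27.8 CPM in young and 88.3, 115 and 85.6 CPM in old libraries (4.28-fold higher, edgeR adjusted p = 0.00135). The calls of Lrrc32, Crim1, Gdf3, Id4 and Atoh8 held on leaving out each library. The 5 decreases with the smallest p were Tgfbi, Sp7, Fbn2, Itgb8 and Runx2. Tgfbi, a matrix protein named for its induction by TGF-beta, fell 1.71-fold (72.5 ± 6.18 to 42.4 ± 4.69 CPM, edgeR adjusted p = 0.00725), and its call held without each library. Sp7 and Runx2, the master regulators of the osteoblast lineage and downstream of BMP2, fell 2.04-fold and 1.47-fold. The Sp7 call was lost without old replicate 1 or 3 (edgeR adjusted p up to 0.0706), and removing young replicate 1, old replicate 1 or old replicate 2 ended the Runx2 call (adjusted p up to 0.123). Itgb8, part of an integrin that activates TGF-beta, fell 2.87-fold at a low level, and its call was lost without any single old replicate (adjusted p up to 0.0707). Fbn2, a microfibril protein, fell 1.83-fold, lost without young replicate 1 or any single old replicate (adjusted p up to 0.0770). Ccn2, induced by TGF-beta and by mechanical load and picked after its values were seen, rose 3.52-fold (548 ± 241 to 1929.9 ± 90.4 CPM, edgeR adjusted p = 0.00966), with 23.2% of its exon length shared with another gene model, so that textbook TGF-beta targets moved in both directions.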

How the data were processed

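RNA of 10000 cells per library was amplified with a SMART-Seq low-input kit, which keeps no strand information, and sequenced as pairs of 100 bases, per the labels' protocols. The authors deposited raw counts per Ensembl gene, and their processing notes name the mm10 build and, without a role for each, HISAT2 2.1.0, STAR 2.6.1a, Trim Galore 0.50, cutadapt 1.18, SAMtools 1.9, StringTie 1.3.4d and Picard 2.18.15. For the counting tool and annotation, a name is not given in the sources used here. Without strand, reads of overlapping genes cannot be told apart. Symbols, positions and exon lengths came from GENCODE M21 (37693 of 39017 identifiers matched, and unmatched ones held 0.323% to 0.378% of counts). Old and young libraries were compared with edgeR 4.0.16 (R 4.3.3): low counts were removed by filterByExpr, libraries were scaled by TMM, the quasi-likelihood test was run with robust settings, and p-values were adjusted by Benjamini-Hochberg over all 15567 genes, with a threshold of 0.05. Depths were 34391206 to 43367734 counts. Shares were tested with exact permutation (scipy 1.17.1). The code was tested on simulated data. Values are given per library for genes that passed or averaged at least 50 CPM at either age, and by range or counts for most others. Of the other pathway genes, up to 5 with the smallest p per direction are described. Alternatives were DESeq2 1.42.0, limma 3.58.1 (voom), other scalings and filters, a replicate block and leaving out each library. The genes, lists and rules were chosen with earlier results of these data known.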

Additional observations from a re-analysis of the deposited data

How the results depend on the processing

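Without 1 library, 9 to 23 of the BMP and TGF-beta genes were higher and 3 to 9 lower in old, against 418 to 1459 and 294 to 1168 of all genes, and 7 to 16 and 2 to 7 of the other pathway genes. The lowest counts of higher genes came without young replicate 2 or old replicate 3 and the largest without young replicate 3; the cause was not tested. With 2 libraries left at 1 age these fits hold fewer samples. DESeq2 called 1331 genes higher and 1137 lower (909 and 731 with edgeR) and 21 and 7 of the BMP and TGF-beta genes, all 19 edgeR calls included. The 19 calls were unchanged under DESeq2 size factors, scaling without the 50 most abundant genes and no filter on low counts. limma-voom added Ltbp2. Asking for 50 counts or more in 3 libraries removed Gdf10 before the test and added Bmp4, Tgfb1, Acvrl1 and Fst.

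Of 621 values of single BMP and TGF-beta genes, 555 kept direction and side of the threshold, 29 gained a call, 30 lost one and 7 reversed, all 7 in genes without a call. Leaving out 1 library gave Tgfb3 a log2 fold change from -0.0887 (young replicate 2 left out) to 0.26 (young replicate 3), with -0.0881 for young replicate 1 and -0.0036 for old replicate 3. Fstl3 ranged from -0.0578 to 0.31 (-0.0404 for young replicate 2, -0.0128 for old replicate 3), and Chrd from -0.64 to 0.0427, positive for young replicate 3. The difference in the Tgfb2 share, -0.170 percentage points, was 1.42 with mean transcript length, and ranged from -0.855 to 0.294 without 1 library (0.0523 and 0.294 without young replicates 1 and 2, 0.176 without old replicate 2).

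Libraries with the same replicate number deviated together only weakly (correlations of 0.0883, 0.0340 and 0.0900), although each correlated best with its own number, so the numbers were not taken as pairs. With a replicate block, 12 BMP and TGF-beta genes were higher and 5 lower (Gdf15, Bmpr1a and Smad9 lost, Ltbp2 gained), 711 and 575 of all genes, and 11 and 5 of the other pathway genes.

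With 3 libraries an age, shares could not reach p below 0.1, and genes with few reads (Bmp7, Gdf5, Gdf10) rest on counts under 100 per library.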
